A study of Mus musculus with 54 samples.

Results

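Lcn2 and 9 other genes known from tissue injury and the acute-phase response (Havcr1, Spp1, Clu, Timp1, Saa3, S100a8, S100a9, Vcam1 and Icam1) were followed in tissues of mice treated with Cmpd60. Cmpd60 is a benzamide that selectively inhibits the histone deacetylases HDAC1 and HDAC2. The 10 genes were chosen by symbol from the 54232 Ensembl genes counted in every library, and each symbol matched 1 identifier (Lcn2 is ENSMUSG00000026822). They were selected on known function and on the rise of Lcn2 in the Cmpd60-treated heart, so every value of Cmpd60 against vehicle in the heart is given below as a description, with no test.

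The mice of the aged cohort were male BL6 animals of 20 months that received intraperitoneal injections each day for 14 days, either of 22.5 mg/kg Cmpd60 or of the vehicle (DMSO, PEG400 and saline). RNA was sequenced from the kidney (6 Cmpd60-treated and 5 vehicle libraries), the heart (5 Cmpd60-treated and 6 vehicle libraries) and the brain (6 and 6 libraries). A further 20 brain libraries came from mice aged between 6 and 7 months per the study's design text, although the labels' growth protocol gives 20 months for every sample. These were APPSWE-1349 mice, which carry human APP with the Swedish mutation (4 Cmpd60-treated and 6 vehicle), and littermate controls, labelled ADcontrol (5 and 5), given the same injections and fasted overnight before tissue collection. What drives the transgene is not given in the sources used here. The labels do not tell which tissues came from the same mouse. The study's methods name fewer aged mice than there are aged libraries, so some tissues share a mouse. For the kidney, the treatment field of the labels is the opposite of the sample titles and source names. The titles were followed, and taking the treatment field instead would turn the direction of every kidney value of Cmpd60 against vehicle.

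Between 23584609 and 57430113 reads were counted on genes in the aged libraries and between 25052335 and 55871402 in the younger brains. By group median, the Cmpd60-treated libraries were deeper than the vehicle ones in the heart and the aged brain, but not in the kidney. No pair of libraries in a group had identical counts. Levels are given as CPM (read counts scaled to a common library total) on library sizes scaled by the TMM method, and 3 counts correspond to 0.0522 to 0.127 CPM before this scaling, depending on the library. Such limits cover counting error only. The tissues matched their labels by marker genes. The summed level of 7 proximal tubule markers was at least 6924 CPM in each kidney library and at most 18.6 CPM in any aged heart or brain library. The sum of 8 cardiomyocyte markers was at least 59933 CPM in each heart, and the sum of 8 neuron markers was at least 6166 CPM in each aged brain. Within the kidney, Cmpd60-treated libraries 54 and 55 stood apart: library 54 had the highest macrophage marker sum of the 11 kidneys (798 CPM) and library 55 the lowest proximal tubule sum (6924 CPM). These libraries also had the highest fibroblast sums, 1029 and 932 CPM against at most 705 CPM in the other 9, and library 55 the next highest macrophage sum (587 CPM). Library 55 also held the fewest genes with any read of the 11 kidneys (18512), while library 54 held 22724. The part of these shifts in the members' values was not tested. Results that rest on these libraries are given with and without them. The number in each title names a library here, and nothing in the labels gives a batch.

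Lcn2 encodes lipocalin 2 (NGAL), a secreted protein that binds bacterial siderophores and is released by injured kidney epithelium, neutrophils and other inflamed cells. Havcr1 encodes KIM-1, a phosphatidylserine receptor that appears on injured proximal tubule cells, and Spp1 (osteopontin), Clu (clusterin) and Timp1 (an inhibitor of matrix metalloproteinases) encode secreted proteins that rise in many injured tissues. Saa3 is an acute-phase serum amyloid A made outside the liver, S100a8 and S100a9 encode the subunits of calprotectin, abundant in neutrophils and monocytes, and Vcam1 and Icam1 encode adhesion molecules that bind leukocyte integrins on activated endothelium. Transcription of several of these genes is induced by cytokines through NF-kB, STAT3 and C/EBP factors.

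The upstream sequence is shown for the 4 members that had at least 3 of the 5 treated hearts above every vehicle heart. This choice rests on the heart values and does not show that these genes are regulated together. The sequences are from RefSeq promoters on GRCm38.p6, which held 8 of the 10 members (Clu and Vcam1 were not matched). Each run is the 250 bases before the annotated start, read 5′ to 3′ on the gene's strand, and capitals mark matches, on either strand, to the NF-kB pattern GGGNNNNNCC, the STAT pattern TTCNNNGAA, the C/EBP pattern TTNNGCAA, the AP-1 pattern TGANTCA or the TATA pattern TATAAA. The windows lie at chr2:32387740-32387989 (minus strand) for Lcn2, chr7:46715677-46715926 (minus strand) for Saa3, chrX:20869916-20870165 (plus strand) for Timp1 and chr9:21015690-21015939 (plus strand) for Icam1.
Lcn2: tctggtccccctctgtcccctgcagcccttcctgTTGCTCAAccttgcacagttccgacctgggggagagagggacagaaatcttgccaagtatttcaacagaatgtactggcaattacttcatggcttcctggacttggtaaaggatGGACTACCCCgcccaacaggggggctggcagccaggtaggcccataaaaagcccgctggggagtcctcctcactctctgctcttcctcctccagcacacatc
Saa3: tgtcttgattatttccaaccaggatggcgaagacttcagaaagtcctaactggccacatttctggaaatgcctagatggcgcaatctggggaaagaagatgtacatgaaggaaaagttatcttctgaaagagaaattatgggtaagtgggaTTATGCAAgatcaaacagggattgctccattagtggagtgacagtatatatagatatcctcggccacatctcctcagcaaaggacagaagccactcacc
Timp1: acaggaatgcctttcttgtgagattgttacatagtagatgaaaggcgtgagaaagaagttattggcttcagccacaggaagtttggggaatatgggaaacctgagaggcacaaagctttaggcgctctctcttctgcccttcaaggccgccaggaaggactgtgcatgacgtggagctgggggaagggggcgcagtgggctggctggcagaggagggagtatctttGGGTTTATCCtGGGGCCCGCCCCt
Icam1: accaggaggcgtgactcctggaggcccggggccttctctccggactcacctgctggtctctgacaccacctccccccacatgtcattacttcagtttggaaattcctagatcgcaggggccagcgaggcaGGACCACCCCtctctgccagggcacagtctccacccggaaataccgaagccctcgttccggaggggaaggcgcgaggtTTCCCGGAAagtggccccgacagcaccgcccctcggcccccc
In Lcn2, the C/EBP match began 216 bases and the NF-kB match 102 bases before the start. The Saa3 window held 1 C/EBP match, 99 bases before the start, and Icam1 held an NF-kB match at 120 bases and a STAT match at 42 bases before the start. Timp1 held 4 NF-kB matches in its last 24 bases, 3 of which overlap in one GC-rich run. Of all 32851 promoter windows of this length, 45.8% held the loose NF-kB pattern, 7.02% the STAT, 9.56% the C/EBP, 6.75% the AP-1 and 12.4% the TATA pattern. Among the 11 windows of the 8 matched members (Havcr1 has 3 starts and Spp1 has 2), 3 held the NF-kB, 1 the STAT, 5 the C/EBP, none the AP-1 and 2 the TATA pattern. These matches describe letters only, and binding was not measured.

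In the heart, Lcn2 stood at 3.23 CPM in the lowest, 4.02 in the median and 5.4 in the highest of the 6 vehicle libraries. In the 5 Cmpd60-treated hearts it stood at 22.3, 38.5, 7.17, 6.05 and 29.3 CPM (libraries 68 to 72). All 5 treated hearts were above all 6 vehicle hearts, 3 of them far above and libraries 70 and 71 just above the highest vehicle value. The means were 20.7 CPM ± 14.1 (SD, n = 5) and 4.17 CPM ± 0.831 (SD, n = 6), and the fitted log2 fold change was 2.31 with a standard error of 0.38, or 4.95-fold. Lcn2 was the only member whose heart groups did not overlap. Over all 19452 genes tested in the heart, 2.69% had groups that did not overlap and 1.18% passed an adjusted p under 0.05. Since the heart contrast chose the members, nothing is read from these shares.

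**Figure D1:**
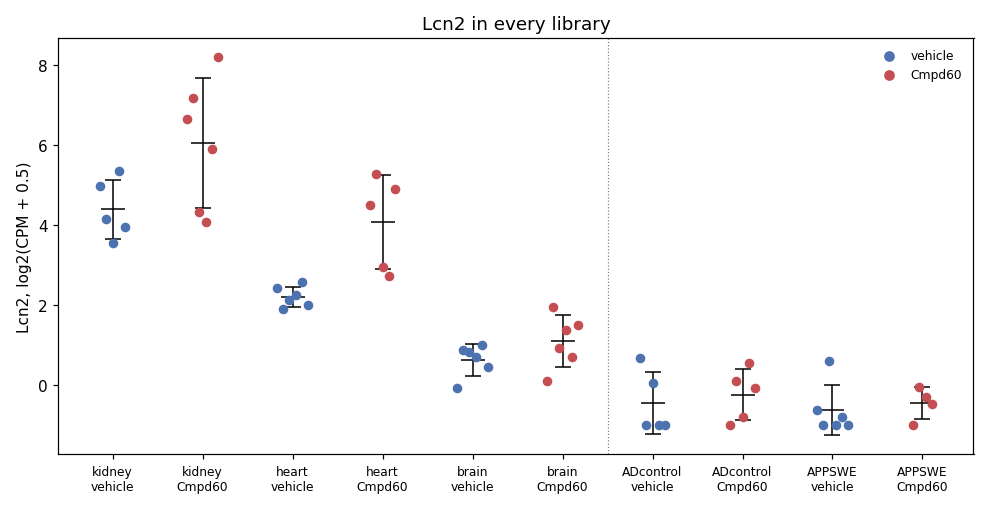
Lcn2 in each of the 54 libraries, as log2(CPM + 0.5), in the 6 aged groups (left of the dotted line) and the 4 younger brain groups. Each point is a library (blue, vehicle; red, Cmpd60), the horizontal bar is the mean and the error bar 1 SD; the 5 treated hearts lie above the 6 vehicle hearts, from 6.05 to 38.5 CPM against 3.23 to 5.4 CPM, while the kidney and brain groups overlap.

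The other members were higher in the treated hearts by smaller steps. Saa3 lay between 0.0697 and 0.535 CPM in the vehicle hearts, with a median of 0.205 CPM. It was counted at 1.35, 0.802, 0.472, 0.704 and 0.503 CPM in the treated hearts, which overlapped the vehicle range in libraries 70 and 72, and its log2 fold change was 1.46 (SE 0.53). The level is low, with 2 to 15 reads per vehicle library and 17 to 49 per treated library. These read numbers are not scaled for depth, and the treated hearts were deeper (median 35445741 reads on genes against 26830122).

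Timp1 ranged from 2.31 to 4.21 CPM around a median of 3.24 CPM in the vehicle hearts. Treated libraries 68 to 72 had 3.75, 8.86, 6.17, 4.35 and 6.23 CPM, so that 4 of 5 were above every vehicle heart, and the log2 fold change was 0.84 (SE 0.21). Icam1 ranged from 12.7 to 21.4 CPM in the vehicle hearts and was at 19.4, 29.8, 22.5, 25.3 and 22.3 CPM in the treated hearts, again with 4 of 5 above the vehicle range and a log2 fold change of 0.40 (SE 0.13). Spp1, at 0.348 to 2.40 CPM with vehicle and 1.57 to 3.18 CPM with Cmpd60, differed by 0.61 (SE 0.35).

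The remaining 4 members overlapped widely in the heart. Their log2 fold changes were 0.41 (SE 0.41) for S100a8, 0.18 (SE 0.11) for Vcam1, 0.11 (SE 0.11) for Clu and 0.11 (SE 0.37) for S100a9. Havcr1 had at most 4 reads in any heart library and was below the filter. Thus 9 of the 10 members passed the filter in the heart and all 9 had a positive log2 fold change, with a median of 0.41. Over all genes the median was -0.0014 and 49.6% had a positive value. Since the heart contrast chose the members, nothing is read from this difference.

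**Figure D2:**
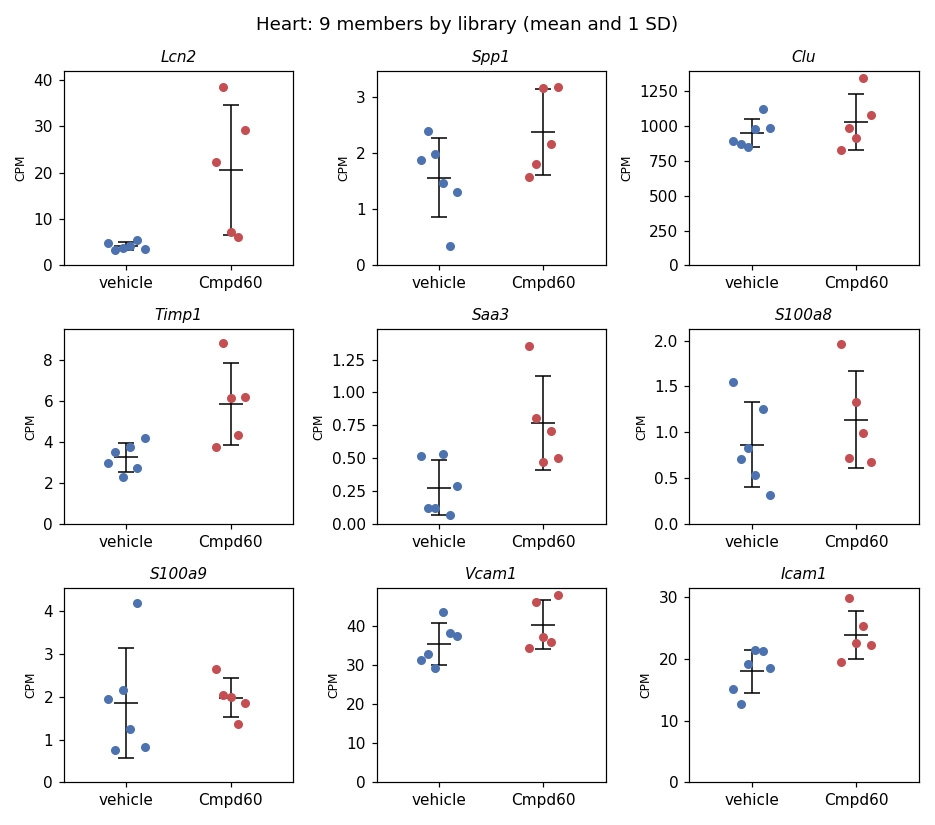
CPM of 9 members in each heart library (blue, 6 vehicle; red, 5 Cmpd60), with the mean and 1 SD; Havcr1 is left out because it had at most 4 reads. The groups are apart for Lcn2 and overlap for the other 8 members, with 4 of 5 treated hearts above the vehicle range for Timp1 and for Icam1.

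Neutrophils are a known source of Lcn2, and their marker levels are therefore given beside it. Mpo, Elane, Ngp, Camp and Fcnb were at 0 in all 5 treated hearts, and in the 6 vehicle hearts 5 of the 12 markers were likewise at 0 (Ly6g, Elane, Ngp, Camp and Fcnb). Mpo was at most 0.0357 CPM with vehicle and Ly6g at most 0.0278 CPM with Cmpd60. Of the 12 neutrophil markers, 6 passed the filter, with 2 higher and 4 lower in the treated hearts. The sum over the 12 ran from 2.75 to 126 CPM in the vehicle hearts, highest in library 62. It ran from 2.65 to 55.1 CPM in the treated hearts, highest in library 68, in which 51.3 CPM came from Ltf alone. The 11 macrophage markers summed to 372 to 562 CPM in the vehicle hearts and 512 to 626 CPM in the treated hearts, with 10 of the 11 genes higher. The 10 endothelial markers, all higher, summed to 1145 to 1264 CPM and 1216 to 1556 CPM. All 8 T and B cell markers were lower, with sums of 4.66 to 10.6 CPM with vehicle and 2.17 to 4.63 CPM with Cmpd60, as were all 5 atrial markers (2815 to 7045 CPM and 2106 to 6102 CPM). Of the 8 mesothelial markers, 7 were lower, with sums of 10.7 to 68.3 CPM and 11.5 to 37.8 CPM. The astrocyte list summed to 421 to 472 CPM and 505 to 715 CPM with no overlap, although 5 of its 7 genes were lower, since most of the sum was Gja1 (a mean of 418 CPM and 563 CPM). The adipocyte list, mostly Lpl, summed to 7313 to 9124 CPM and 9064 to 11142 CPM, with 6 of its 8 genes lower. Whether these shifts had a part in the Lcn2 values was not tested, and in bulk tissue fewer cells of a type and less RNA per cell cannot be told apart.

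In the kidney, the largest log2 fold change of the members was also that of Lcn2. The members were chosen with earlier results of these data known, so the kidney values are not independent of that choice. The vehicle kidneys had 30.6, 17.2, 11.2, 40.3 and 14.9 CPM (libraries 45 to 49), and the 6 treated kidneys ran from 16.4 CPM through a median of 79.5 CPM to 295 CPM in library 55. Treated libraries 52 and 53 lay within the vehicle range and the other 4 above it. The log2 fold change was 2.21 (SE 0.63), or 4.62-fold, which did not pass the edgeR quasi-likelihood test after Benjamini-Hochberg adjustment (unadjusted p = 0.0034, adjusted p = 0.18). It was 1.57 without library 55 and 1.61 without libraries 54 and 55 together (adjusted p = 0.22).

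The tubular injury receptor Havcr1 varied widely between kidneys. The vehicle kidneys had 66.3, 20.8, 16.6, 129 and 21.0 CPM and the treated kidneys ran from 9.51 CPM through a median of 59.7 CPM to 582 CPM, again in library 55. The log2 fold change was 1.62 (SE 0.84, adjusted p = 0.49), and without libraries 54 and 55 it was -0.29 (SE 0.60). The groups overlapped almost entirely apart from those 2 libraries.

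Spp1 stood at 2014, 1151, 931, 3626 and 1110 CPM in the vehicle kidneys and between 1201 and 16229 CPM in the treated kidneys, with a median of 3783 CPM. Its log2 fold change of 1.56 (SE 0.59) had an unadjusted p of 0.019 and an adjusted p of 0.33, and was 0.52 (SE 0.42) without libraries 54 and 55. Timp1 was counted at 2.99, 0.762, 1.42, 4.23 and 0.849 CPM with vehicle and at 0.666 to 15.2 CPM with Cmpd60 (log2 fold change 1.39, SE 0.65, adjusted p = 0.44), falling to a log2 fold change of 0.31 without those libraries. Clu ran from 351 to 938 CPM with vehicle and from 351 to 1816 CPM with Cmpd60 (0.49, SE 0.38, adjusted p = 0.67), and its sign turned to -0.16 without them.

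The 5 other members did not pass the test in the kidney either. The log2 fold change was 0.75 for S100a9 (SE 0.41, adjusted p = 0.50), 0.49 for Saa3 (SE 0.62), 0.29 for Icam1 (SE 0.18), 0.24 for Vcam1 (SE 0.50) and -0.07 for S100a8 (SE 0.91, at 0 to 0.674 CPM). Vcam1 was at 175 CPM in both libraries 54 and 55 and between 27.1 and 42.8 CPM in the other 4 treated kidneys, against 37.8 to 111 CPM with vehicle, so that its value without those libraries was -0.99 (SE 0.27, adjusted p = 0.12).

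All 10 members were tested in the kidney and 9 had a positive log2 fold change, with a median of 0.62 where the median over all genes was near 0 (-8.0e-05) and 50.0% of genes were above 0. None of the 10 passed an adjusted p under 0.05 in edgeR, in limma-voom or in DESeq2, where 0.300% of 20698 genes passed in edgeR. At an unadjusted p under 0.05, 2 of the 10 passed, Lcn2 and Spp1, where 11.3% of all genes did. No member had kidney groups that did not overlap, against 2.30% of all genes. Without libraries 54 and 55, 6 of the 10 members were higher and 4 lower, with a median of 0.30.

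**Figure D3:**
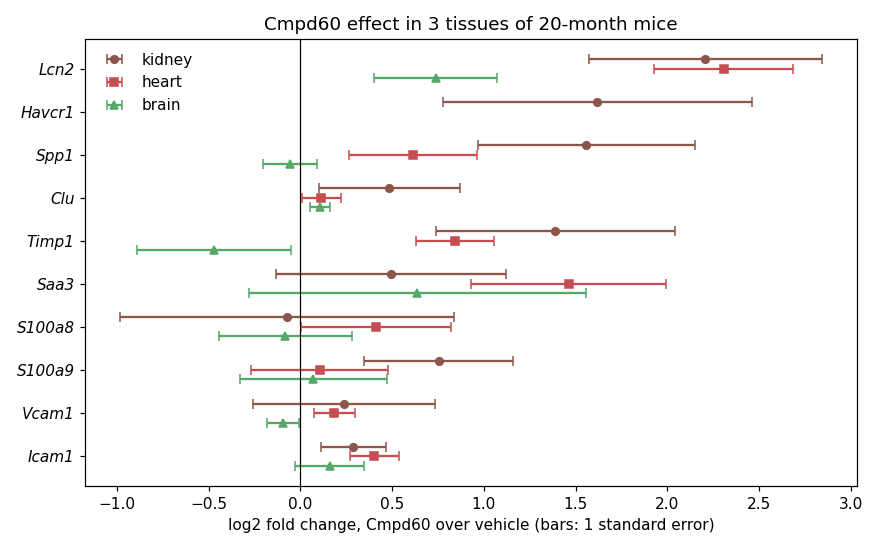
Log2 fold change of Cmpd60 over vehicle for the members in the kidney (circles), heart (squares) and brain (triangles) of 20-month mice, with bars of 1 standard error; Havcr1 was tested only in the kidney. Lcn2 is at 2.21 in the kidney, 2.31 in the heart and 0.74 in the brain, and the kidney bars are the widest for most members.

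In the aged brain the members were low or had small differences between the groups. Lcn2 ran from 0.451 CPM through a median of 1.18 CPM to 1.5 CPM with vehicle and from 0.576 CPM through 1.74 CPM to 3.37 CPM with Cmpd60. Of the treated brains, 3 were above the vehicle range and 3 within it. The log2 fold change of 0.74 (SE 0.33) had an unadjusted p of 0.040 and an adjusted p of 0.34.

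Clu, an abundant astrocyte product, lay between 542 and 663 CPM with vehicle and between 608 and 690 CPM with Cmpd60, a log2 fold change of 0.11 (SE 0.05, adjusted p = 0.39). Its 95% interval ran from -0.0054 to 0.22. Vcam1 lay between 21.9 and 31.4 CPM and between 23.3 and 26.4 CPM (-0.09, SE 0.09). Spp1 had a log2 fold change of -0.06 (SE 0.15) and Icam1 of 0.16 (SE 0.19).

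The low members carried wide errors in the brain. Timp1 was at most 0.680 CPM in any library (log2 fold change -0.47, SE 0.42). S100a8 and S100a9 ranged from 0.475 to 3.86 CPM over both groups, with log2 fold changes of -0.08 (SE 0.36) and 0.07 (SE 0.40). Saa3 had at most 9 reads in any brain and a log2 fold change of 0.64 with an SE of 0.92, and Havcr1 had none in all 12 libraries.

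Of the 9 members tested in the aged brain, 5 were higher and 4 lower, with a median log2 fold change of 0.070 against 0.0072 over all genes. None passed an adjusted p under 0.05 in edgeR, limma-voom or DESeq2, where 0.0205% of 24438 genes passed in edgeR. Only Lcn2 had an unadjusted p under 0.05, where 13.8% of all genes did. No member's groups were free of overlap, against 0.925% of genes.

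The tissue difference itself was tested between kidney and brain in a joint fit of the 34 aged libraries. This fit took no account of tissues that share a mouse. Spp1 responded more in the kidney by 1.59 on the log2 scale (SE 0.58, adjusted p = 0.33) and Timp1 by 1.82 (SE 0.79, adjusted p = 0.44), and both had an unadjusted p under 0.05. The Lcn2 effect was 1.45 larger in the kidney, with a 95% interval from -0.24 to 3.13. Without libraries 54 and 55 these differences were 0.54 for Spp1, 0.73 for Timp1 and 0.84 for Lcn2. None of the 10 members passed in edgeR, limma-voom or DESeq2, where 0.0885% of 27105 genes passed in edgeR, and 2 had an unadjusted p under 0.05, where 10% of genes did. Havcr1 is among the 10, but with no read in any aged brain its difference cannot be interpreted. Differences that involve the heart are given without a test. The Lcn2 effect in the heart exceeded that in the kidney by 0.11 on the log2 scale (SE 0.71) and that in the brain by 1.56 (SE 0.85), and the Saa3 effect exceeded that in the kidney by 0.98 (SE 0.88). The coefficient of variation of Lcn2 was 19.9% in the vehicle and 68.1% in the treated hearts, and 53.3% and 99.2% in the kidneys.

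Before any treatment effect, the members differed strongly between tissues. In the joint fit, vehicle Lcn2 was at 21.6 CPM ± 11.5 (SD, n = 5) in the kidney, 5.23 CPM ± 0.910 (SD, n = 6) in the heart and 0.907 CPM ± 0.315 (SD, n = 6) in the brain. Every step of this order passed the edgeR test, at 2.04 on the log2 scale (SE 0.53, adjusted p = 0.0011) from heart to kidney and 2.52 (SE 0.62, adjusted p = 0.00054) from brain to heart. Both steps from the heart lost the call under limma-voom (adjusted p = 0.078 and 0.14).

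Spp1 had the widest range of the members measured in all 3 tissues, with means of 1670 CPM in the kidney, 26.8 CPM in the brain and 1.98 CPM in the heart, each step passing the test (log2 difference 5.96, SE 0.49, from brain to kidney, and -3.79, SE 0.51, from brain to heart). The heart-to-brain call was lost under limma-voom (adjusted p = 0.19). Clu was highest in the heart, at 1194 CPM ± 119 (SD, n = 6), and was not separated by the test between kidney (563 CPM ± 231) and brain (517 CPM ± 39.1), with a log2 difference of 0.12 and an interval from -0.40 to 0.65. Havcr1 was at 47.9 CPM ± 45.5 in the vehicle kidneys, while the vehicle hearts had at most 3 reads each and the vehicle brains none.

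Timp1 was highest in the heart at 4.10 CPM ± 0.957 (SD, n = 6), against 1.94 CPM ± 1.42 in the kidney and 0.317 CPM ± 0.174 in the brain. The kidney lay below the heart by 1.10 on the log2 scale with an adjusted p of 0.056 in edgeR. That value fell below 0.05 in 13 of the alternative settings and not in the others. Leaving out 1 library at a time alone gave 34 settings. Saa3 averaged 0.828 CPM in the kidney, 0.347 CPM in the heart and 0.0362 CPM in the brain, and kidney and heart were not separated by the test (adjusted p = 0.098).

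The calprotectin genes were lowest in the kidney. S100a8 averaged 0.262 CPM in the kidney, 1.08 CPM in the heart and 1.18 CPM in the brain, and S100a9 averaged 0.50, 2.30 and 1.71 CPM. For both, the kidney was lower than the heart (adjusted p = 0.0049 and 0.00016) and lower than the brain (adjusted p = 0.0018 and 0.0012), and heart and brain did not differ beyond their spread. Icam1 fell in order from kidney (42.8 CPM) to heart (22.6 CPM) to brain (3.53 CPM), with every step passing, and Vcam1 had the same order (65.5, 44.7 and 22.4 CPM) but kidney and heart were not separated (adjusted p = 0.17).

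Havcr1 entered the joint fit through the kidney libraries alone and is left out of the counts. Of the 9 other members, 3 were called higher and 3 lower in the vehicle kidney than in the vehicle heart, where 31.1% and 25.6% of all genes were called. Against the brain, 6 were called higher and 2 lower in the kidney (32.8% and 39.8% of all genes), and 6 higher and 1 lower in the heart (28.9% and 43.2%).

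**Figure D4:**
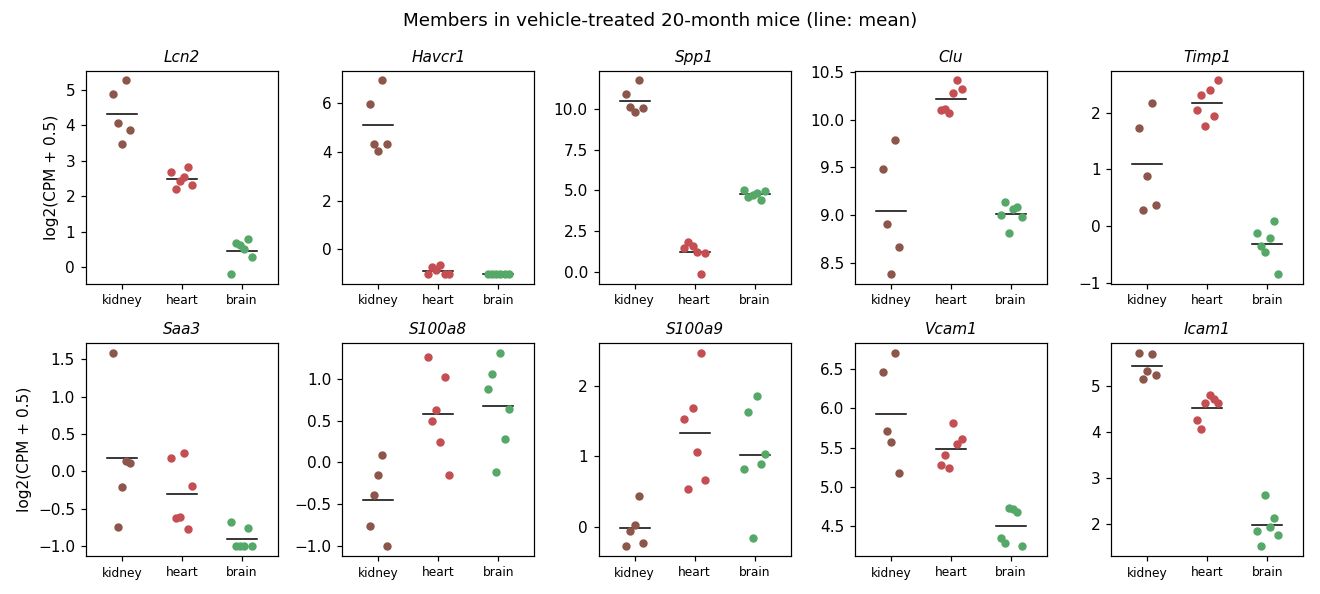
Each member in the vehicle libraries of the kidney (5), heart (6) and brain (6) of 20-month mice, as log2(CPM + 0.5) from the joint normalization, with a line at the mean; axes differ between panels and levels are not comparable between genes. Lcn2 and Icam1 step down from kidney to heart to brain, Clu and Timp1 are highest in the heart, and S100a8 and S100a9 are lowest in the kidney.

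Within the kidney, 4 members varied together with Lcn2 from library to library. After removing the group means, log2(CPM + 0.5) of Lcn2 across the 11 kidneys correlated with Spp1 at r = 0.922 (Spearman 0.873), with Clu at 0.870 (0.827), with Timp1 at 0.856 (0.836) and with Havcr1 at 0.824 (0.855). In permutations within the groups these had Pearson p-values of 0.00095, 0.0033, 0.0042 and 0.0070, or 0.023, 0.033, 0.033 and 0.042 after Benjamini-Hochberg adjustment over the 24 relations computed in 3 tissues. The adjusted permutation p of the Spearman values was 0.040, 0.043, 0.043 and 0.040. Leaving out the 2 libraries farthest from the median in Lcn2 (53 and 55) gave r = 0.832 for Spp1, 0.727 for Clu, 0.660 for Timp1 and 0.567 for Havcr1. Without libraries 54 and 55, r was 0.921, 0.874, 0.834 and 0.795. Genes outside the members reached such values too. In the joint fit, kidney r with Lcn2 was 0.921 for Lmna, 0.895 for Sat1 and 0.886 for Maff, picked below as most like Lcn2. The share of all genes at such values was not computed, so the relation is not shown to be particular to these members.

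The pattern was present inside each group. Vehicle kidneys 48 and 45, which had the highest Lcn2 of that group, also had the highest Havcr1, Spp1, Clu and Timp1, and r with Lcn2 in the 5 vehicle kidneys was 0.844 for Timp1 and 0.971 to 0.998 for the other 3. In the 6 treated kidneys it was 0.797 to 0.916. The calprotectin gene S100a8 (r = 0.0643) and Saa3 (0.370) did not pass this test in the kidney, nor did Icam1 (0.692, adjusted permutation p = 0.20), S100a9 (0.593) and Vcam1 (0.548). In library 55, the highest for Lcn2, Havcr1, Spp1, Clu, Timp1 and Icam1, the proximal tubule sum was 6924 CPM and the distal nephron sum 4779 CPM, the lowest of the 11 kidneys. In library 54 they were 9903 and 7514 CPM. The part of these shifts in the correlations was not tested.

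**Figure D5:**
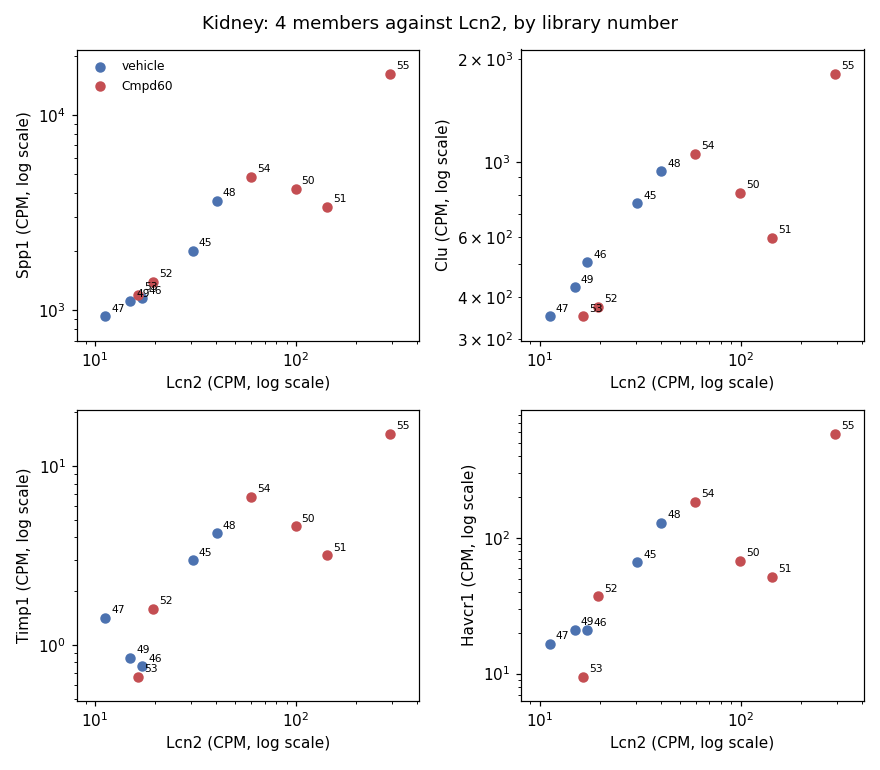
Spp1, Clu, Timp1 and Havcr1 against Lcn2 in the 11 kidney libraries, in CPM on log axes, each point labelled with its library number (blue, vehicle; red, Cmpd60). The points run from low to high together in both groups, with vehicle libraries 45 and 48 among the treated ones. Library 55 is at the far right and the top of each panel, and treated libraries 50 and 51 are next to it on the Lcn2 axis.

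No such relation passed in the heart or the aged brain, where none of the 8 and 7 relations with Lcn2 had an adjusted permutation p under 0.05. In the heart the largest r was 0.482, for Vcam1, followed by S100a9 at 0.359, Timp1 at 0.305, Saa3 at 0.221 and Icam1 at 0.175. S100a9 (Spearman 0.545) was the only heart member with an unadjusted Pearson permutation p under 0.05 (0.0365, adjusted 0.175). In the aged brain the largest r was 0.527, for Icam1.

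Over the 34 aged libraries, with the 6 group means removed, the genes most like Lcn2 among 11683 candidates were Maff (r = 0.833), Lrg1 (0.808), Sparc (0.80), Lmna (0.776) and Sat1 (0.771). Of these, Lrg1 encodes an acute-phase glycoprotein, Maff a small Maf transcription factor, Sparc a matrix-binding secreted protein, Lmna the nuclear lamins A and C, and Sat1 an enzyme of polyamine breakdown. The likeness of Sparc to Lcn2 was 0.931 in the heart alone, and that of Lmna was 0.921 in the kidney and 0.359 in the brain. For Saa3 the closest were Gm13375 (0.592), 1190007I07Rik (0.511), Sip1 (0.511), Pfkfb3 (0.488) and Alyref2 (0.483). These are the highest of many correlations and are given as a description.

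The wider pathway was described with 5 gene lists. In the kidney, the cytokine and acute-phase list had 41 genes higher and 7 lower of 48 tested (median log2 fold change 0.29), and the injured epithelium list had 30 higher and 3 lower of 33, with a median of 0.39. None of the genes of either list passed the adjusted test, where 0.300% of all genes did, and 13 and 12 had an unadjusted p under 0.05, where 11.3% of all genes did. Named after their values were seen, the liver-type acute-phase genes Saa1 (4.65, SE 1.35, adjusted p = 0.19) and Fgb (1.66, SE 0.53) and the Lcn2-like Lrg1 (2.11, SE 0.53, adjusted p = 0.12) were the highest of the first list among genes of at least 1 CPM. Saa2, at a mean of 0.104 CPM, had a higher value (5.55, SE 1.48). Saa1 and Saa2 are near-identical genes, and how reads that match both were counted was not examined. Nupr1, a stress-response gene (0.93, SE 0.20, adjusted p = 0.080), was the only gene of the second list whose kidney groups did not overlap. Without libraries 54 and 55, the cytokine and acute-phase list had 22 genes higher and 25 lower (median -0.017) and the injured epithelium list 19 higher and 14 lower (median 0.031), with 47.8% of all genes higher, so the one-sided counts rested on those libraries. In that setting 11 and 7 genes of these lists still had an unadjusted p under 0.05. The share of all genes at that threshold is not given here, so nothing is read from these counts.

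Of the receptors and partners of the members' proteins, 21 were higher and 8 lower (median 0.047), of the TIMP and MMP family 8 and 9, and of the leukocyte and endothelial adhesion genes 7 and 8, with none called in the kidney. Without libraries 54 and 55 the receptors were 11 higher and 18 lower, the TIMP and MMP family 3 and 14 and the adhesion genes 8 and 8, and 1 of the 29 receptor genes was called, the integrin subunit Itgb7, where 0.7% of all genes were. In the aged brain, 32 of 41 cytokine and acute-phase genes were higher (median 0.11), where 51.8% of all genes were (median 0.0072). At an unadjusted p under 0.05, 6 of the 41 passed, where 13.8% of all genes did. None was called in any of the 5 lists, where 0.0205% of all genes were. The complement gene C4b was closest (0.46, SE 0.08, adjusted p = 0.052).

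In the heart, as a description, 28 of 41 cytokine and acute-phase genes had a positive and 13 a negative log2 fold change, with a median of 0.19 against -0.0014 over all genes. The highest were the chemokine Ccl7 (1.36, SE 0.29), the acute-phase protease inhibitor Serpina3n (1.05, SE 0.19) and the STAT3 target Socs3 (0.90, SE 0.16). The lowest of the list, among genes of at least 1 CPM as for all heart genes named here, were Cebpb (-0.76, SE 0.36), Hp (-0.53, SE 0.70) and Nfkb2 (-0.31, SE 0.09).

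Of the heart adhesion genes, 12 of 15 were higher, led by the selectins Sele (0.96, SE 0.27) and Selp (0.78, SE 0.32) and the junctional adhesion molecule F11r (0.42, SE 0.07). Ncam1 (-0.27) and L1cam (-0.02), both neural adhesion molecules, had negative values. Among the receptors, 19 of 29 were higher, from the integrin Itgam (0.77, SE 0.20), Timd4 (0.63) and Itgb2 (0.40) to the lipocalin receptor Slc22a17 (-0.50, SE 0.21), Itga4 (-0.48) and Itgb7 (-0.42). In the TIMP and MMP family, 10 of 16 were higher, with Mmp12 (0.78), Mmp19 (0.41) and Mmp2 (0.36) at the top and Timp2 (-0.13), Timp4 (-0.08) and Mmp23 (-0.03) at the bottom. In the injured epithelium list, 18 of 31 were higher, with Plaur (0.89), Ccn2 (0.47) and Fos (0.45) highest and Prom1 (-0.90), Krt19 (-0.70) and Krt8 (-0.63) lowest.

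In the younger brains Lcn2 was low, and no member passed the test. Lcn2 stood at 1.10, 0, 0.533, 0 and 0 CPM in the vehicle ADcontrol brains and at 0, 0.562, 0.0729, 0.958 and 0.449 CPM in the Cmpd60-treated ones. It ran from 0 through a median of 0.0370 CPM to 1.01 CPM in the vehicle APPSWE brains and was at 0, 0.468, 0.311 and 0.22 CPM in the treated ones. These libraries varied far more than the aged ones, with a common biological coefficient of variation of 0.742 against 0.114 in the aged brain. They also held fewer genes with any read, 15044 to 24821 per library against 24939 to 28017 in the aged brains. The part of this in the values at 0 was not tested. Library s139 is vehicle in the labels and Cmpd60 in a heading of the study's supplement, and the labels were followed.

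Of the 10 members, 8 were tested (Havcr1 and Saa3 were below the filter). None passed an adjusted p under 0.05 or an unadjusted p under 0.05 in edgeR for Cmpd60 in APPSWE mice (0.00% and 8.78% of 23273 genes), for Cmpd60 in ADcontrol mice (0.00% and 3.76%) or for vehicle APPSWE against vehicle ADcontrol mice (0.00859% and 8.35%), and none was called by limma-voom or DESeq2. The log2 fold changes spanned -2.49 to 2.03, -1.86 to 0.33 and -2.07 to 0.40. For Lcn2 they were 0.29 (SE 1.74), 0.32 (SE 1.71) and -0.67 (SE 1.64), with errors larger than the differences.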

How the data were processed

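The authors sequenced poly(A) RNA (strand-specific libraries) of 54 mouse tissue samples, and per the labels' processing notes used FastQC, Trimmomatic 0.32, HISAT2 2.1.0 and HTSeq 0.11.0. The deposited files hold raw counts of reads per Ensembl gene for each library, without normalization. The build and annotation used for counting are not given in the sources used here. The 5 summary lines of each file, from 15.36% to 22.15% of its total, were left out. Genes were named by identifier, which matched 32651 of 54232 genes, 2667 of them through an older symbol.

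Counts were analysed in R 4.3.3 with edgeR 4.0.16 (TMM, quasi-likelihood test) keeping a gene when 3 or more of the fitted libraries each held more than 2 of its reads, with Benjamini-Hochberg adjustment over all genes tested. Kidney, heart and aged brain were fitted each on its own, the 20 younger brains together, and all 34 aged libraries together to compare tissues. The joint fit treats the tissues as taken from different animals, although some must share a mouse by the number of aged mice in the study's methods. Its p-values and intervals between tissues are therefore not those of independent samples. Genes called had an adjusted p under 0.05, and intervals are 95%. Nothing in the labels says how far replicates are separate beyond being separate samples, so p-values measure the spread between these samples. Permutation tests of correlations used 100000 resamples, and group means were removed first. Alternatives were DESeq2 size factors, no expression filter, a stricter one (10 or more reads in 5 or more libraries), limma-voom 3.58.1, DESeq2 1.42.0, each library left out, only the groups compared in the joint fits, and for the younger brains library s139 as Cmpd60-treated and genes detected as a covariate. Leaving out kidney libraries 54 and 55 was chosen after seeing the data. The edgeR test was tested on simulated data. Named list genes were those called in the kidney or aged brain, and in the heart the 3 highest and 3 lowest per list with a mean of at least 1 CPM, except an item that is not reported here. Genes most like Lcn2 or Saa3 were the 5 of highest Pearson correlation over 34 libraries, among genes of at least 1 CPM in each tissue. Other genes were named after their values were seen. The members and lists were chosen with earlier results of these data known.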

Additional observations from a re-analysis of the deposited data

Results flagged for a closer look

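Of 84 pairs of a member and a group, 4 held a library far from the others of its group by Dixon's criterion on log2(CPM + 0.5), all in the younger brains, and chance gives such a value in about 1 of 20. Lcn2 was at 1.01 CPM in vehicle APPSWE library s142, where the other 5 ranged from 0 to 0.148 CPM. Vcam1 was at 1.16 CPM in vehicle APPSWE library s140, where the others ranged from 16.3 to 36.5 CPM. Icam1 was at 16.9 CPM in vehicle APPSWE library s146, against 1.37 to 2.72 CPM in the others. Icam1 was at 0 CPM in Cmpd60-treated ADcontrol library s152, against 2.41 to 4.25 CPM in the others. None of the aged libraries met this criterion for a member. Of the 4 flagged libraries, s140, s146 and s152 had few genes detected, at 15555, 16577 and 15084, and s142 had 20277. The younger brains ranged from 15044 to 24821 genes detected. The part of this in the flagged values was not tested.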

How the results depend on the processing

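No paired analysis was possible because every library has a number of its own and no label ties libraries of different groups together. No member passed the adjusted test for Cmpd60 in the kidney, the aged brain or the younger brains, or for the kidney-brain difference, under any alternative. Leaving out kidney libraries 54 and 55, a choice made after seeing the data, turned the log2 fold changes of Havcr1 to -0.29, Clu to -0.16, S100a8 to 0.29, Vcam1 to -0.99 and Icam1 to -2.5e-05. Under limma-voom the kidney values of S100a8 and Vcam1 turned to 0.28 and -0.10. The vehicle kidney-brain difference of Clu turned to -0.0117 with DESeq2 size factors and -0.0116 with DESeq2. With genes detected as a covariate, Lcn2 in the younger brains turned to -3.25 for Cmpd60 in APPSWE mice, -0.66 in ADcontrol mice and 2.70 for genotype. The cause was not tested. Leaving out 1 library at a time gave -0.60 to 0.41 for kidney S100a8, -0.13 to 0.49 for kidney Vcam1, -0.22 to 0.0152 for aged brain Spp1, -0.39 to 0.14 for S100a8 and -0.18 to 0.34 for S100a9 there, -0.10 to 0.26 for the vehicle kidney-brain difference of Clu and -0.39 to 0.0637 for the heart-brain difference of S100a8. For Lcn2 in the younger brains it gave -0.20 to 2.44, -0.26 to 1.59 and -2.81 to 0.60. Lcn2 stayed positive in the heart (1.96 without library 69 to 2.54 without library 71) and in the kidney (1.57 without library 55 to 2.52 without library 48), where its lowest adjusted p was 0.068, from DESeq2. Over all genes, calls in the kidney ran from 62 to 429 with DESeq2 and 20 to 131 with 1 library left out, and in the aged brain from 5 to 429 and 1 to 372. In the heart 229 became 746 and 36 to 247. Low counts of Saa3, Havcr1 and, in the younger brains, Lcn2 limit their precision.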
